A study of Mus musculus with 7 samples.

Results

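The genes described here are *Pou5f1*, *Nanog*, *Sox2*, *Zfp42*, *Dppa3*, *Dppa4*, *Dppa5a*, *Esrrb*, *Tdh* and *Tfcp2l1*, which belong to the pluripotency network that gonocytes switch off as they differentiate. They were taken by symbol from the deposited table of RefSeq genes, where each had 1 row, and make up 10 of the 24739 genes listed. All 10 reached a mean of at least 0.5 FPKM (fragments scaled to transcript length and to library size) and were among the 13988 genes tested.

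RNA-Seq was performed on whole testes of C57BL/6 embryos at embryonic day 14.5 (E14.5), with the single pair of testes of 1 embryo in each library. There were 3 libraries labelled wild-type (WT) and 4 from embryos homozygous for *Glis3* zf5, an allele in which exon 4 is deleted in all cells of the body and the DNA-binding function of this zinc finger transcription factor is disrupted. Ribosomal RNA was removed from total RNA, poly-A tails were not selected, and the reads carried no strand information. The comparison asks how gene expression in the fetal testis differs without functional GLIS3, and mutant values are given against WT values measured in the same way.

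Gonocytes are the germ cells of the fetal testis. They inherit from primordial germ cells the transcription factors that also hold embryonic stem cells in the pluripotent state, and they lose them as they stop dividing and take on the male fate. Germ cells that keep these factors can give rise to teratomas, so the network is a usual marker of how far gonocytes have progressed.

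*Glis3* itself reached 7.63, 6.89 and 2.91 FPKM in WT replicates 1 to 3. The mutants had 3.86, 3.26, 2.90 and 2.66 FPKM. The third WT value lay between those of the mutants. That embryo is therefore named the library labelled WT replicate 3 below, and results are given with and without it. It was also the library whose whole profile was closest to a mutant library (Pearson r = 0.990 with mutant replicate 3 over the genes tested). For 5 of the genes described here it was not above all mutants. It was above them for *Sox2*, *Zfp42*, *Dppa5a*, *Esrrb* and *Tdh* (*Tdh* 9.04 against 0.797 to 1.63 FPKM). Its mean log2(FPKM + 0.5) over 8 germ cell markers was 4.19. WT replicates 1 and 2 had 5.15 each, and mutants 3.87 to 4.09. The paper found *Glis3* mainly in germ cells, and the cause of its low value here was not tested. The number of fragments behind an FPKM value is unknown. The steps between low FPKM values gave library depths between 0.785 and 0.940 of that of WT replicate 1.

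All 10 genes had a lower mean in mutant than in WT testes on the log2(FPKM + 0.5) scale, where 47.9% of all genes tested had a log2 fold change below 0. None was past the threshold when p-values were adjusted over all genes (limma, adjusted p under 0.05), a threshold passed by 1 of the 13988 genes, or 0.00715%. An unadjusted p under 0.05 with a lower mutant mean was reached by *Pou5f1*, *Sox2*, *Zfp42*, *Esrrb* and *Tdh*, 5 of 10, against 8.79% of all genes. The 3 WT and 4 mutant values did not overlap for *Sox2*, *Zfp42*, *Esrrb* and *Tdh*, 4 of 10, against 7.59% of all genes with mutants lower. The median log2 fold change was -0.80 for the 10 genes and 0.0084 for all genes tested. In a whole testis, fewer germ cells and less RNA per germ cell cannot be told apart.

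Without the library labelled WT replicate 3, 5 of the 10 genes were called lower in mutants (limma, adjusted p under 0.05), namely *Pou5f1*, *Zfp42*, *Dppa4*, *Tdh* and *Tfcp2l1*. The share of all genes called lower in that fit was 3.99%. This library was singled out from the same data because it was near the mutants. Leaving it out therefore favours wider group differences, and calls in that fit are no independent evidence. The median of the 10 log2 fold changes was then -1.15, and that of all genes 0.013. Without WT replicate 1 none of the 10 was called, in a fit that called 2 genes in all. Without WT replicate 2 only *Tdh* was, in a fit that called 5 genes in all.

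**Figure D1:**
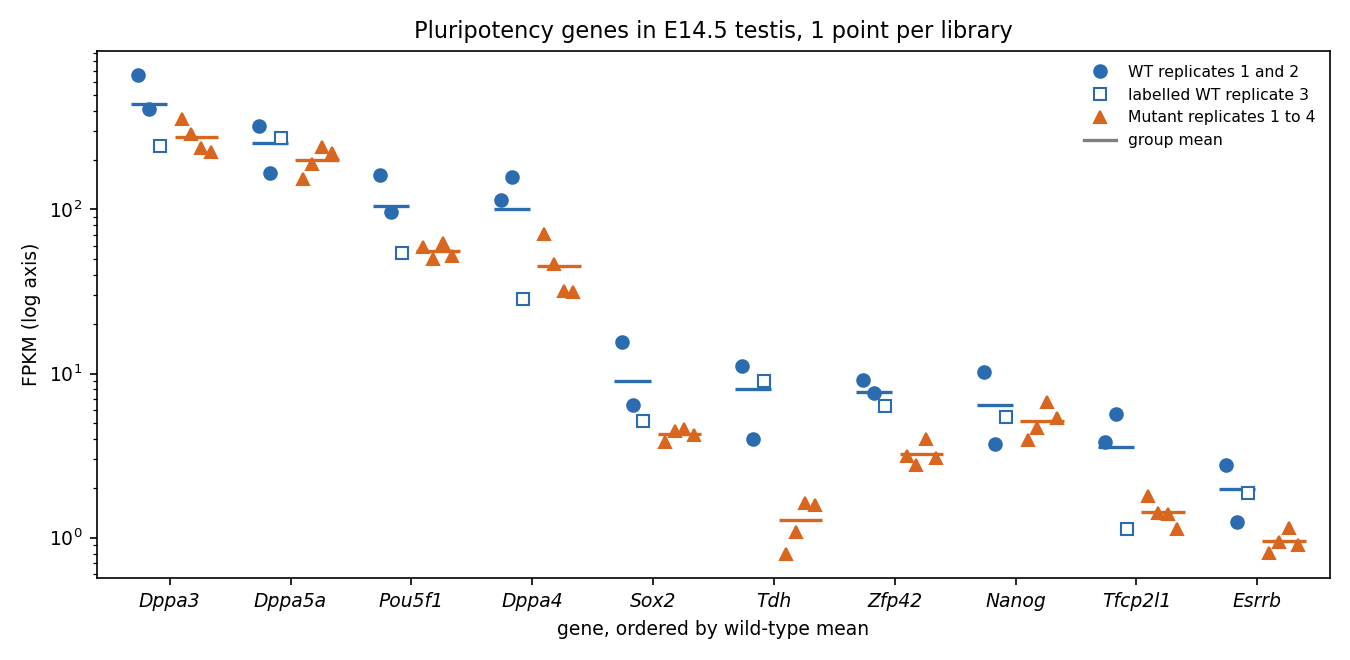
FPKM (log axis) of each of the 10 genes in the 3 WT (blue) and 4 mutant (orange) libraries, with 1 point per library and a bar at each group mean; the open square is the library labelled WT replicate 3. The groups are apart for *Sox2*, *Tdh*, *Zfp42* and *Esrrb*, while the open square lies among the mutants for *Pou5f1*, *Dppa3* and *Nanog* and just below them for *Dppa4* and *Tfcp2l1*.

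*Pou5f1* encodes OCT4, the POU factor at the centre of the network (gene ID 18999, chr17:35506032-35510777, plus strand, mm10). It reached 163 FPKM in WT replicate 1, 96.0 in WT replicate 2 and 54.1 in the library labelled WT replicate 3. The mutant libraries had 59.2, 50.01, 62.8 and 52.1 FPKM. WT replicates 1 and 2 were above all mutants, and the third WT library lay between them. The means were 104 ± 54.9 FPKM (SD, n = 3) in WT and 56.0 ± 6.01 (SD, n = 4) in mutant testes, and the log2 fold change was -0.76 (with its standard error, SE, at 0.31 and a limma adjusted p of 0.267). It was -1.16 without the library labelled WT replicate 3 (limma adjusted p = 0.0212, 0.0212 to 0.541 over all alternatives) and -0.37 without WT replicate 1.

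*Sox2* encodes the HMG-box partner of OCT4, with which it binds DNA at joint octamer and SOX sites (gene ID 20674, chr3:34650005-34652460, plus strand). Its FPKM was 15.5, 6.43 and 5.11 in WT replicates 1 to 3 and 3.83, 4.44, 4.58 and 4.23 in mutant replicates 1 to 4. All WT libraries were above all mutants, with WT replicate 1 far above the other libraries. The means were 9.02 ± 5.66 FPKM (SD, n = 3) and 4.27 ± 0.326 (SD, n = 4), for a log2 fold change of -0.84 (SE 0.31, limma adjusted p = 0.237), which was -0.39 without WT replicate 1. *Sox2* lies inside the long noncoding gene *Sox2ot* on the same strand, so reads of both transcripts within its exons cannot be told apart.

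*Nanog* encodes the homeobox factor that stabilizes the pluripotent state (gene ID 71950, chr6:122707489-122714633, plus strand). Its FPKM was 10.3, 3.71 and 5.45 in the WT libraries and 3.94, 4.68, 6.67 and 5.37 in the mutant libraries. Only WT replicate 1 was above the mutants, and WT replicate 2 was the lowest of all 7 libraries. The means were 6.47 ± 3.39 FPKM (SD, n = 3) and 5.17 ± 1.16 (SD, n = 4), with a log2 fold change of -0.21 (SE 0.30, limma adjusted p = 0.747). Without WT replicate 1 the sign turned, with a log2 fold change of 0.16, and without WT replicate 2 it was -0.52. Reads may be shared with annotated *Nanog* pseudogenes, since up to 10 placements of a read were kept.

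These core factors control each other's genes, and their promoters are shown for the sites they recognise. RefSeq promoters on GRCm38.p6 (the assembly of mm10) were matched for 6 of the 10 genes, and the 250 bases before the start are printed 5′ to 3′ on the strand of the gene. Capitals mark the octamer core ATGCAAA, the SOX core ACAATG and the GC box GGGCGG, each searched on both strands, so that a match on the other strand appears as its reverse complement. The octamer core was found in 4.12% of all 32851 promoter windows of this length, the SOX core in 10.7% and the GC box in 32.7%.
Pou5f1 chr17:35505782-35506031 (plus): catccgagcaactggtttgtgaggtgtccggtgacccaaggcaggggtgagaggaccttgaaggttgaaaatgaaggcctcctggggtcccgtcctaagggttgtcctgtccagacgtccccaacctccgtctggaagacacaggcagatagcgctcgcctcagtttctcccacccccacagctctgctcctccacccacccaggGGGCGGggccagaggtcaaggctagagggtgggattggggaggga
Sox2 chr3:34649745-34649994 (plus): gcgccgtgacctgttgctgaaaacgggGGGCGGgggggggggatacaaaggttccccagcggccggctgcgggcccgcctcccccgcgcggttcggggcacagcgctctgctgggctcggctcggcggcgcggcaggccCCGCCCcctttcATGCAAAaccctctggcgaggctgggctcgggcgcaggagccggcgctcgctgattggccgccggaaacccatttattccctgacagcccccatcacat
Nanog chr6:122707239-122707488 (plus): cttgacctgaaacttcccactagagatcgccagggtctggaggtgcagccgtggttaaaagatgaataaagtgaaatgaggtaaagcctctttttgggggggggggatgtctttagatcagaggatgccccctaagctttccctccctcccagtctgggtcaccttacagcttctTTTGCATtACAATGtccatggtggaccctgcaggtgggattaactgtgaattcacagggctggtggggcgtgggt
Zfp42 chr8:43307010-43307259 (minus): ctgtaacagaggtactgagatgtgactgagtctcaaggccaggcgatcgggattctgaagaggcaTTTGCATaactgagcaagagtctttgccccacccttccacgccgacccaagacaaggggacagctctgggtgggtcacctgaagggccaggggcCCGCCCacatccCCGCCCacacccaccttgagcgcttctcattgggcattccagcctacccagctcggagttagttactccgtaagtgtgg

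In *Nanog* the octamer core began 75 bases before the start and the SOX core 67 bases before it, with 1 base between them. The octamer core began 99 bases before the start of *Sox2* and 185 before that of *Zfp42*. *Pou5f1* had a GC box 45 bases before its start and neither core in this window, and its second RefSeq promoter held a SOX core. The windows of *Esrrb* and *Tfcp2l1* held none of these motifs. The GLIS core TGGGGGGT, found in 1.36% of all windows, and the ESRRB element TCAAGGTCA, found in 0.387%, were in none of the 9 promoters of the 6 genes. A core was present both in genes whose groups did not overlap (*Sox2*, *Zfp42*) and in *Nanog*, whose groups did. *Sox2* was the richest of these promoters in CpG, with 27 CpG dinucleotides against a median of 6 over all windows.

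*Zfp42* encodes REX1, a zinc finger protein used as a marker of naive pluripotency (gene ID 22702, chr8:43295067-43307009, minus strand). It reached 9.09, 7.61 and 6.33 FPKM in WT replicates 1 to 3. Mutant replicates 1 to 4 had 3.13, 2.76, 3.97 and 3.05 FPKM. Every WT library was above every mutant library, including the library labelled WT replicate 3. The means were 7.68 ± 1.38 FPKM (SD, n = 3) and 3.23 ± 0.517 (SD, n = 4), for a log2 fold change of -1.13 (SE 0.14, unadjusted p = 3.91e-05, limma adjusted p = 0.109). Only 4 of the 13988 genes had a smaller unadjusted p. Without the library labelled WT replicate 3 it was -1.25 (limma adjusted p = 0.0067, 0.0067 to 0.352 over all alternatives). A pseudogene copy of *Zfp42* is annotated, with which reads may be shared.

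*Esrrb* encodes an orphan nuclear receptor that NANOG activates in stem cells (gene ID 26380, chr12:86361117-86521628, plus strand). It was the lowest of the 10 genes, with 2.78, 1.25 and 1.88 FPKM in the WT libraries and 0.812, 0.936, 1.15 and 0.908 FPKM in the mutant libraries. The groups did not overlap, although WT replicate 2 was only just above mutant replicate 3. The means were 1.97 ± 0.770 FPKM (SD, n = 3) and 0.952 ± 0.144 (SD, n = 4), with a log2 fold change of -0.72 (SE 0.20, limma adjusted p = 0.186).

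*Tfcp2l1* encodes a grainyhead-like factor that acts downstream of LIF and STAT3 in naive stem cells (gene ID 81879, chr1:118627945-118685168, plus strand). Its FPKM was 3.81, 5.71 and 1.12 in the WT libraries and 1.78, 1.41, 1.39 and 1.13 in the mutant libraries. WT replicates 1 and 2 were above all mutants, and the library labelled WT replicate 3 was the lowest of all 7. The means were 3.55 ± 2.30 FPKM (SD, n = 3) and 1.43 ± 0.269 (SD, n = 4), for a log2 fold change of -0.88 (SE 0.39, limma adjusted p = 0.304). It was -1.43 without the library labelled WT replicate 3, with an adjusted p of 0.0098 (limma, 0.0098 to 0.575 over all alternatives), and -0.47 without WT replicate 2.

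*Tdh* encodes threonine dehydrogenase, the mitochondrial enzyme by which mouse embryonic stem cells turn threonine into glycine and acetyl-CoA (gene ID 58865, chr14:63492347-63509092, minus strand). Its FPKM was 11.1, 3.97 and 9.04 in WT replicates 1 to 3 and 0.797, 1.09, 1.63 and 1.58 in mutant replicates 1 to 4. The lowest WT library was above the highest mutant library, and the library labelled WT replicate 3 was second highest of all. The mutant mean of 1.27 ± 0.401 FPKM (SD, n = 4) was 15.8% of the WT mean of 8.05 ± 3.68 (SD, n = 3), which was the greatest difference among the 10 genes. The log2 fold change was -2.19 (SE 0.32, unadjusted p = 0.000108, limma adjusted p = 0.112), and only 2 of the 13988 genes had a lower log2 fold change. The adjusted p was 0.0178 without WT replicate 2 and 0.0259 without the library labelled WT replicate 3 (limma, 0.0178 to 0.352 over all alternatives), with log2 fold changes of -2.60 and -2.05. The gene *Gm17232* overlaps *Tdh* on the opposite strand, and without strand information their reads cannot be told apart there.

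*Dppa3* encodes STELLA, which protects 5-methylcytosine in the early embryo (gene ID 73708, chr6:122626424-122630271, plus strand). It had the highest level of the 10 genes, with 663, 410.3 and 243 FPKM in the WT libraries and 358, 290.1, 237 and 223 FPKM in the mutant libraries. WT replicates 1 and 2 were above all mutants, and the library labelled WT replicate 3 lay among them. The means were 439 ± 211 FPKM (SD, n = 3) and 277 ± 61.0 (SD, n = 4), for a log2 fold change of -0.57 (SE 0.31, limma adjusted p = 0.380). It was -0.22 without WT replicate 1 and -0.94 without the library labelled WT replicate 3.

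*Dppa4* encodes a SAP-domain chromatin protein of pluripotent cells (gene ID 73693, chr16:48283735-48294292, plus strand). Its FPKM was 114, 159 and 28.3 in the WT libraries and 70.9, 46.3, 31.7 and 31.6 in the mutant libraries. As for *Tfcp2l1*, WT replicate 2 was the highest and the library labelled WT replicate 3 the lowest of all 7. The log2 fold change was -0.90 (SE 0.55, limma adjusted p = 0.429), between means of 100.3 ± 66.2 FPKM (SD, n = 3) and 45.1 ± 18.5 (SD, n = 4). It was -1.65 without the library labelled WT replicate 3, with an adjusted p of 0.0324 (limma, 0.0324 to 0.714 over all alternatives), and -0.41 without WT replicate 2.

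*Dppa5a* encodes an RNA-binding KH-domain protein of stem cells and germ cells (gene ID 434423, chr9:78367054-78368199, minus strand). It reached 325, 166 and 272 FPKM in the WT libraries and 153, 189, 240.4 and 221 FPKM in the mutant libraries. WT replicate 2 lay among the mutants, whereas the library labelled WT replicate 3 was above them. The means were 254 ± 80.8 FPKM (SD, n = 3) and 201 ± 38.4 (SD, n = 4), with a log2 fold change of -0.30 (SE 0.23, limma adjusted p = 0.536). It was -0.10 without WT replicate 1 and -0.58 without WT replicate 2. Pseudogene copies are annotated for *Dppa3* and related copies for *Dppa5a*, so the values of both are uncertain to the extent that reads are shared.

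**Figure D2:**
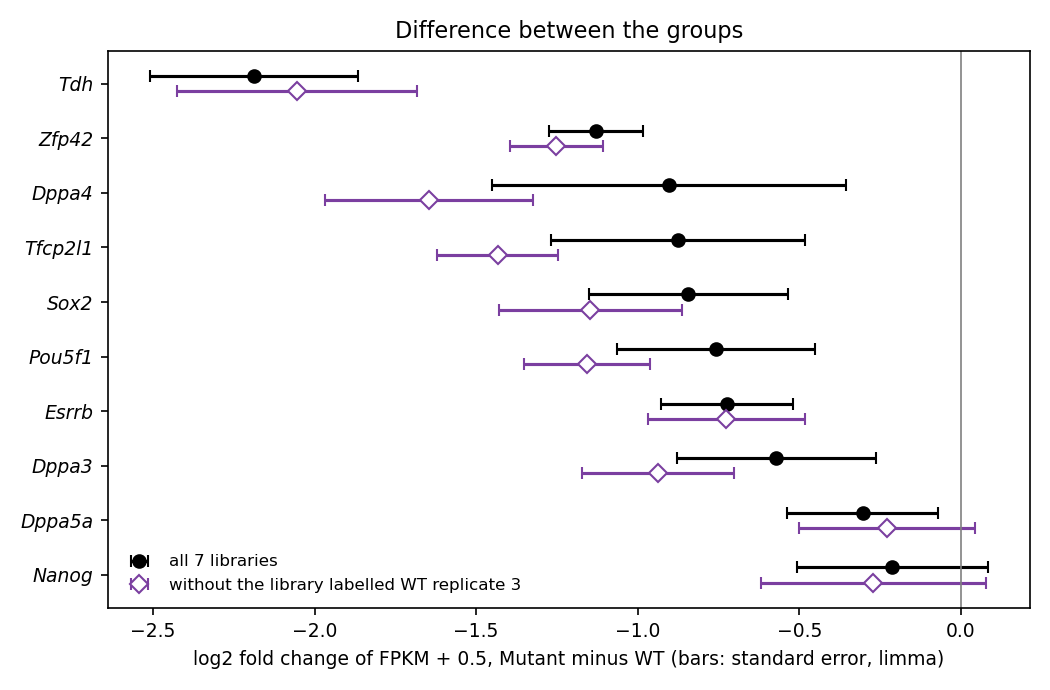
Log2 fold change of FPKM + 0.5 (mutant minus WT) of the 10 genes from limma, with all 7 libraries (black) and without the library labelled WT replicate 3 (purple); bars are standard errors. Values with all libraries reach from -2.19 for *Tdh* to -0.21 for *Nanog*, and *Dppa4* moves most, from -0.90 to -1.65.

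By WT means per transcript length, the genes ran from *Dppa3*, *Dppa5a*, *Pou5f1* and *Dppa4* at over 100 FPKM to *Sox2*, *Tdh*, *Zfp42*, *Nanog*, *Tfcp2l1* and *Esrrb* at under 10 FPKM. The ranges of mean ± SD of neighbours in this order overlapped, apart from the steps from *Dppa5a* to *Pou5f1* and from *Dppa4* to *Sox2*. WT libraries were more variable than mutant libraries for every gene, with coefficients of variation from 18.0% (*Zfp42*) to 66.1% (*Dppa4*) in WT and from 7.63% (*Sox2*) to 41.0% (*Dppa4*) in mutant testes. WT replicate 1 was the highest library for 8 genes and WT replicate 2 for *Dppa4* and *Tfcp2l1*.

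The genes did not vary alike across the 7 libraries. *Dppa4* and *Tfcp2l1* had similar profiles (Pearson r = 0.96 over 7 libraries of both groups), as did *Esrrb* and *Tdh* (r = 0.95), *Pou5f1* and *Sox2* (r = 0.94) and *Nanog* and *Dppa5a* (r = 0.91). *Dppa4* and *Dppa5a* had an r of -0.25. Because the libraries come from both groups and differ in depth, these coefficients describe shared profiles only.

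The profiles of *Dppa4* and *Tfcp2l1* resembled that of 8 genes of male gonocyte differentiation (*Nanos2*, *Dnmt3l*, *Piwil4*, *Tdrd9*, *Tdrd1*, *Tdrd5*, *Mael* and *Morc1*), which act in male germ cell fate and in transposon silencing. The mean log2(FPKM + 0.5) of these 8 genes was 3.28 and 4.44 in WT replicates 1 and 2, 1.07 in the library labelled WT replicate 3, and 2.66, 1.64, 1.09 and 0.957 in mutant replicates 1 to 4. WT replicate 2, the highest here, was the lowest library for *Nanog*, and the library labelled WT replicate 3 was as low as the lowest mutants. All 8 had a lower mutant mean. Their median log2 fold change was -1.41, and 2 (*Tdrd1* and *Mael*) had an unadjusted p under 0.05. Without the library labelled WT replicate 3, 3 of the 8 (*Tdrd1*, *Tdrd5* and *Mael*) were called lower (limma, adjusted p under 0.05).

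**Figure D3:**
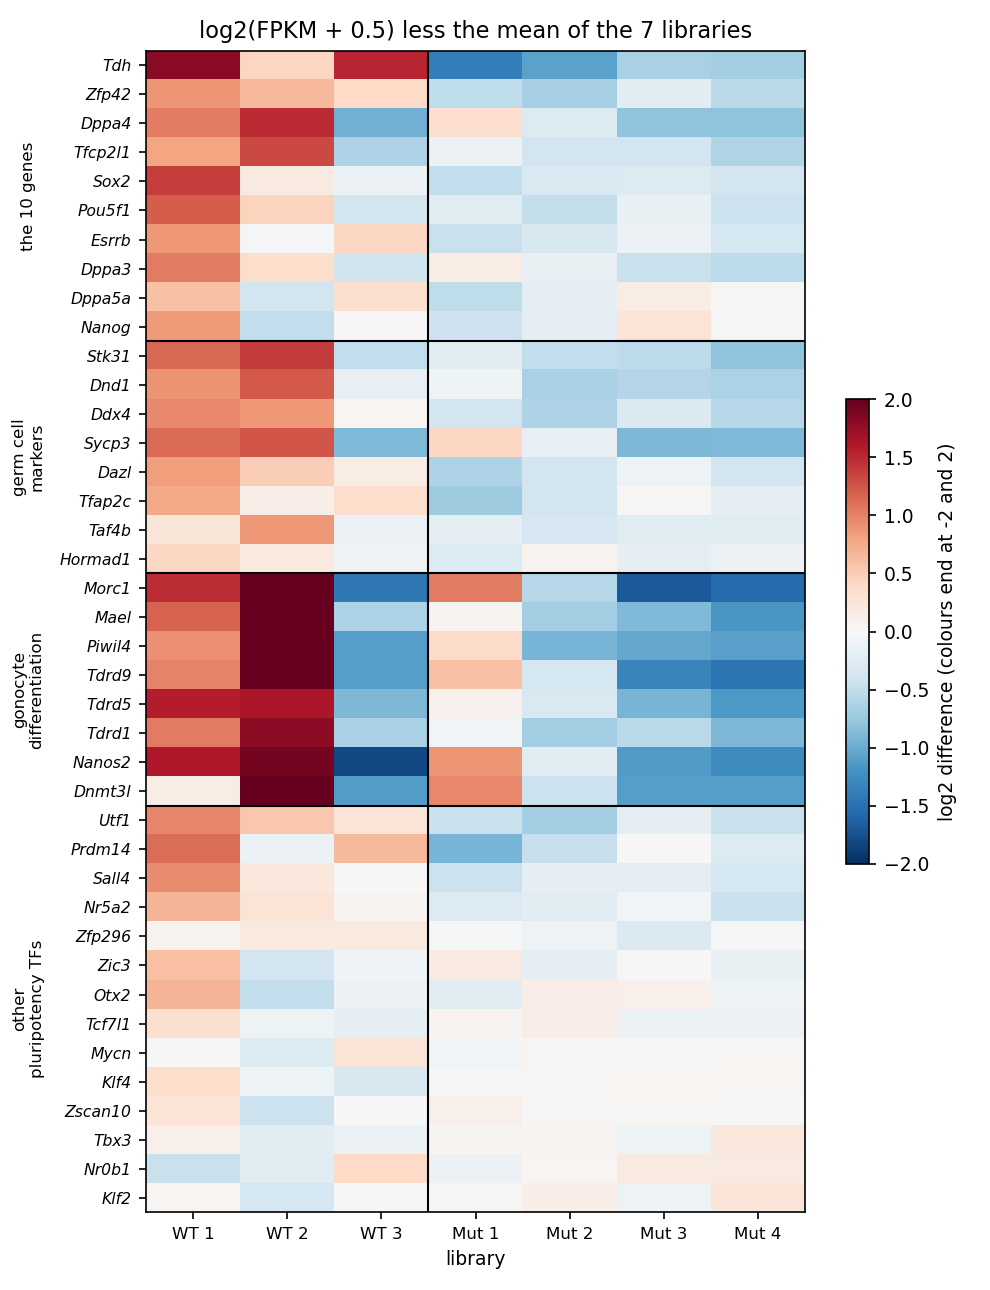
Log2(FPKM + 0.5) of each gene less its mean over the 7 libraries, in 3 WT and 4 mutant libraries, for the 10 genes, 8 germ cell markers, 8 genes of gonocyte differentiation and 14 other pluripotency transcription factors (TFs), sorted by log2 fold change within each group. Most of the 10 genes and the germ cell markers are high in WT replicate 1, and genes of gonocyte differentiation are highest in WT replicate 2. The other pluripotency factors spread from a log2 fold change of -1.03 (*Utf1*) to 0.18 (*Klf2*), with a median of -0.036.

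By highest Pearson r over the 7 libraries among all genes tested, *Zfp42* was most like *Ctps*, *Nup43* and *Utf1* (r = 0.998, 0.996 and 0.988), and *Dppa4* most like *Pet2*, *Tex15* and *AI854703* (r = 0.999, 0.995 and 0.993). *Utf1* encodes a chromatin factor of pluripotent cells and *Tex15* a factor of germ cells. For *Nanog* the closest were *Ybx2*, a germ cell RNA-binding factor, *Spag7* and *Il18bp* (r from 0.985 to 0.996). *Pou5f1* was closest to *Irf1*, *Atg13* and *Atp6v1c1*, *Sox2* to *Zfp819*, *Igsf21* and *Usp7*, and *Dppa3* to *Clpb*, *Dync1li1* and *Golga3* (r from 0.989 to 0.998). *Dppa5a* was closest to *Igfbpl1*, *Tjp3* and *Acvr2b*, *Tdh* to *Snapin*, *Nol8* and *Ythdc2*, and *Tfcp2l1* to *Lzts1*, *Fancb* and *Fmn1* (r from 0.985 to 0.995). With 7 libraries and 13988 genes, values of this size occurred for each of these genes.

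Of 16 other pluripotency transcription factors, 14 passed the filter, 9 with a lower and 5 with a higher mutant mean and none past the threshold (limma, adjusted p under 0.05). *Utf1* (14.6, 10.6 and 8.63 FPKM in WT, 5.13, 4.23, 6.26 and 5.13 in mutants), *Prdm14*, *Sall4* and *Nr5a2* had an unadjusted p under 0.05 with lower mutant means, with log2 fold changes of -1.03, -0.96, -0.68 and -0.59. PRDM14 and SALL4 act in primordial germ cells, and their groups overlapped for *Prdm14* and did not for *Sall4*. The other extreme was *Klf2*, *Nr0b1* and *Tbx3*, with log2 fold changes of 0.18, 0.16 and 0.14. Which cells of the testis expressed each of these 14 genes was not tested. *Utf1*, *Sall4* and *Nr5a2* were called lower without the library labelled WT replicate 3 (adjusted p = 0.0112, 0.0493 and 0.0492 from limma).

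Of 17 tested genes that are linked to pluripotency but encode no transcription factor of the network, 11 had a lower and 6 a higher mutant mean, with a median log2 fold change of -0.22. *Tcl1*, a coactivator of AKT, *Lin28a* and *Lin28b*, which block the maturation of let-7 microRNAs, and *Trim71* had an unadjusted p under 0.05 with log2 fold changes of -1.22, -0.97, -0.56 and -0.96. Without the library labelled WT replicate 3, *Lin28a*, *Lin28b*, *Trim71* and *Fbxo15* were called lower (adjusted p = 0.0087, 0.0148, 0.0107 and 0.0148 from limma). *Eras*, a constitutively active RAS protein of stem cells, went the other way, with 0.625, 0.340 and 0.360 FPKM in WT and 1.44, 0.967, 1.04 and 1.06 FPKM in mutant libraries. Its groups did not overlap, and its log2 fold change was 0.79 (SE 0.16, limma adjusted p = 0.151). *L1td1* and *Tdgf1*, the next highest, had log2 fold changes of 0.21 and 0.49 and overlapping groups.

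The LIF pathway, which keeps mouse stem cells naive and acts through *Tfcp2l1*, had 5 of 6 listed genes tested, of which *Lifr* had a lower and *Il6st*, *Jak1*, *Stat3* and *Socs3* a higher mutant mean. Their log2 fold changes reached from -0.068 to 0.20, all groups overlapped, and none had an unadjusted p under 0.05. Beside *Tdh*, 8 genes of threonine and glycine catabolism were tested, 7 with a lower mutant mean. *Shmt1*, which interconverts serine and glycine, had 51.2, 51.8 and 52.5 FPKM in WT and 36.7, 31.9, 42.4 and 41.2 FPKM in mutant libraries, with a log2 fold change of -0.45 (SE 0.10, limma adjusted p = 0.168). Next lowest were *Gldc*, of the glycine cleavage system, at -0.42 and *Shmt2* at -0.28. *Gcat*, whose enzyme acts after threonine dehydrogenase, had a log2 fold change of -0.087 against -2.19 for *Tdh*, and its groups overlapped. *Mthfd2* and *Dld*, the other two at the upper end, were at -0.046 and 0.070.

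The testis label was checked against markers of its cells. All 8 germ cell markers were present and had lower mutant means, with a median log2 fold change of -0.88, 7 of 8 with an unadjusted p under 0.05 and 4 of 8 with groups that did not overlap. Without the library labelled WT replicate 3 their median was -1.20, and 6 of the 8 were called lower (limma, adjusted p under 0.05), beside 5 of the 10 genes. *Ddx4*, the germ cell helicase VASA, had 102, 94.7 and 53.1 FPKM in WT and 39.8, 33.6, 42.2 and 34.9 FPKM in mutant libraries, and *Dazl*, a germ cell RNA-binding factor, 271, 211 and 167 against 98.6, 116, 141 and 115. Sums of the 8 markers were 331 to 642 FPKM in WT and 238 to 277 in mutants. Of 8 Sertoli cell genes 7 had a higher mutant mean (1006 to 1272 FPKM summed in WT, 1226 to 1405 in mutants), and all 5 fetal Leydig cell genes did, 4 with an unadjusted p under 0.05 (1596 to 2658 and 2498 to 3073 FPKM summed). The part of these shifts in the values of the 10 genes was not tested beyond the scaling to germ cell markers that follows.

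Endothelial genes (5 tested, 3 lower) and neural crest genes (4 of 7 tested, 2 lower) had none with an unadjusted p under 0.05, and *Sox10*, a marker of neural crest and glia, was at 0.350 to 1.41 FPKM. Of 4 tested macrophage genes, all with higher mutant means, 1 had such a p. Of 8 genes of mesonephric and duct epithelium, 3 were tested. TFCP2L1 is also known from the duct epithelium of the kidney. *Pax2* was at or near 0 in every library (at most 0.0163 FPKM), whereas *Lhx1* was lower in mutants (log2 fold change -0.79, unadjusted p = 0.0047, adjusted p = 0.178 from limma). Erythroid genes (5 of 6 tested, 2 lower) had sums between 511 and 3792 FPKM and no unadjusted p under 0.05.

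To set the 10 genes against the germ cell markers of the same library, the mean log2(FPKM + 0.5) of the 8 markers was subtracted. This reference was 5.15, 5.15 and 4.19 in WT replicates 1 to 3 and 4.09, 3.98, 3.99 and 3.87 in mutant replicates 1 to 4, so that the groups did not overlap and differed by -0.85 (two-sided exact permutation test, p = 0.0286, the smallest that 3 against 4 libraries can give). Relative to it, 4 of the 10 genes were lower and 6 higher in mutants, and none had a p under 0.05 by exact permutation test. All 10 groups overlapped on this scale. The 8 markers themselves had log2 fold changes from -0.30 (*Hormad1*) to -1.20 (*Stk31*), so their mean is no direct measure of germ cell number. The paper counts *Ddx4* among the reduced piRNA pathway genes and *Hormad1* among the unchanged ones. It reports germ cell counts at E14.5 as not different between genotypes, but the mutant mean it gives was lower than the WT mean. Its discussion dates the first loss to that day.

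*Tdh* relative to the germ cell markers was -1.61, -2.99 and -0.94 in WT and -3.71, -3.31, -2.90 and -2.81 in mutant libraries on the log2 scale. WT replicate 2 lay among the mutants, and the difference was -1.34 (exact permutation test, p = 0.0857), the greatest in size of the 10 with all 7 libraries. It was -1.91 without WT replicate 2 and -0.89 without the library labelled WT replicate 3 (exact permutation tests, p = 0.0667 and p = 0.267), where *Dppa5a* (0.94) and *Nanog* (0.90) differed more in size. *Zfp42* differed by -0.28 (exact permutation test, p = 0.229) and by -0.085 without the library labelled WT replicate 3, while *Dppa4* and *Tfcp2l1* differed by -0.055 and -0.027. *Sox2* (0.0056), *Pou5f1* (0.092), *Esrrb* (0.13) and *Dppa3* (0.28) had differences close to or above 0. *Dppa5a* and *Nanog* were the highest in mutants relative to germ cell markers, by 0.54 and 0.64 (exact permutation tests, p = 0.286 and p = 0.2). Without WT replicate 2 these differences were 0.10 and 0.17. With *Ddx4* and *Dazl* alone as the reference, *Nanog* differed by 0.76 (exact permutation test, p = 0.0286, the smallest it can give). The permutation p-values here are not adjusted for the 10 genes compared. The values say nothing of levels per cell, since the markers may themselves differ per germ cell, which was not tested.

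**Figure D4:**
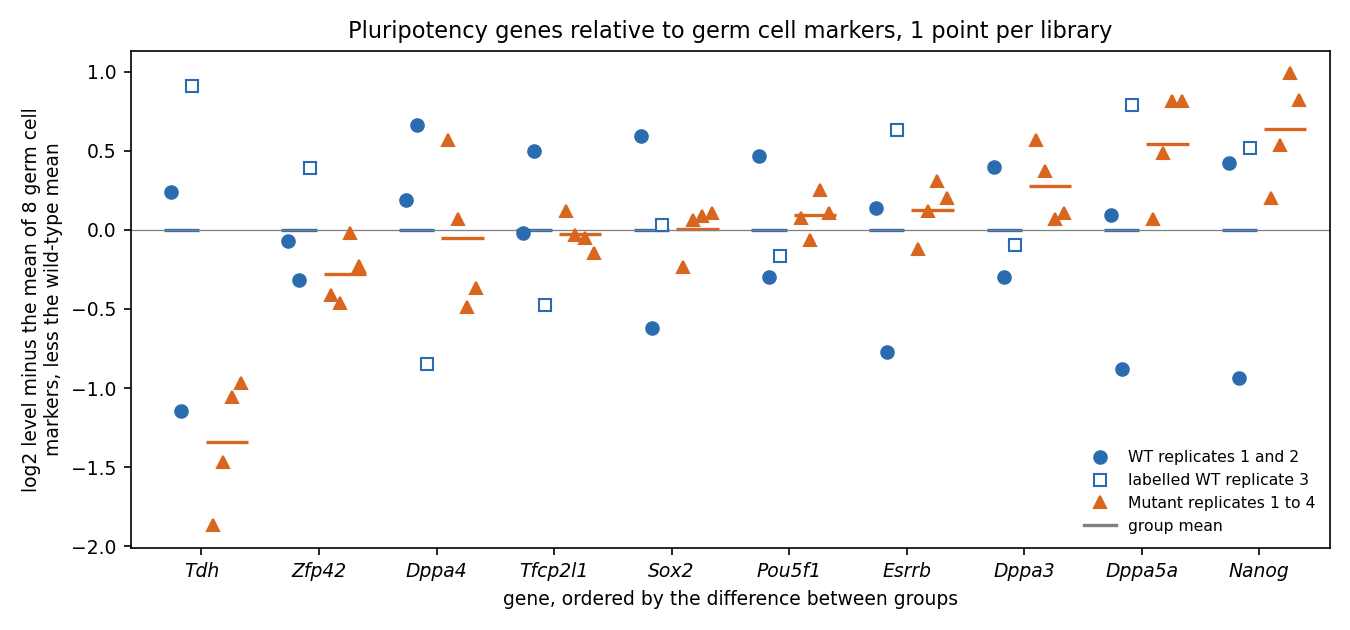
Log2 level of each of the 10 genes less the mean of 8 germ cell markers, drawn from the WT mean of each gene, with 1 point per library and bars at the group means. With all 7 libraries *Tdh* stands farthest below 0 in mutants (-1.34), and *Dppa5a* and *Nanog* lie above it (0.54 and 0.64), while the groups overlap for all 10 genes.

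A second deposited table gave raw counts of uniquely mapped reads on single LINE, SINE and LTR loci. Reads of loci lying entirely within a gene were summed, as a readout of the same libraries that also covers introns and that shares exonic reads with FPKM. Of the 10 genes, 7 had enough reads to be tested (a mean of at least 10 reads per library). *Tdh* passed this filter only through its WT libraries, as its mutant reads alone fell short of it. *Pou5f1* had 23 reads in all on 2 loci, and *Sox2* and *Dppa5a*, both short genes, had no locus with reads. The libraries held 3454317 to 4670830 repeat reads, and reads were set on a common library size by TMM scaling (CPM).

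All 7 genes had a negative log2 fold change, none was called by edgeR (adjusted p under 0.05, passed by 0.0128% of the 15612 genes tested), and 5 had an unadjusted p under 0.05, against 5.85% of all genes with mutants lower. DESeq2 called 2 of the 7, *Tdh* and *Zfp42*, among 54 genes in all. Without the library labelled WT replicate 3, edgeR called 4 of the 7 (*Zfp42*, *Dppa4*, *Tdh* and *Tfcp2l1*) against 1.06% of all genes called lower.

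*Tdh* had 72, 20 and 59 reads in the WT libraries and 8, 2, 13 and 8 in the mutant libraries, all outside of exons. This was 11.2 ± 5.07 CPM (SD, n = 3) against 2.09 ± 1.24 (SD, n = 4), and the groups did not overlap. The log2 fold change was -2.42 (adjusted p = 0.0983 from edgeR, 0.000626 from DESeq2), close to the -2.19 of its FPKM. Because *Tdh* passed the read filter through its WT libraries, a fall in mutants was favoured by that filter. Its fullest locus, an RLTR28 element at chr14:63493001-63493481 that does not reach *Gm17232*, had 30, 8 and 29 reads in WT and 3, 1, 4 and 1 in mutants. The next, an RMER5 element, had 18 reads in all.

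*Zfp42* had 98, 76 and 27 reads in the WT libraries and 27, 22, 23 and 11 in the mutant libraries, 99.3% of them outside of exons. The log2 fold change was -1.45 (adjusted p = 0.204 from edgeR, 0.0482 from DESeq2). Unlike its FPKM, its repeat reads in the library labelled WT replicate 3 (6.31 CPM) lay among the mutants (2.88 to 7.15 CPM). The B1_Mur3 element at chr8:43305706-43305866 held 69.0% of the reads, with 72, 56 and 17 in WT and 16, 14, 16 and 5 in mutants, and a B1_Mus1 element was next with 22 in all.

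*Esrrb*, the longest of the 10 genes, had reads spread over 108 loci, 107, 59 and 67 in WT and 34, 35, 55 and 38 in mutant libraries. The groups did not overlap in CPM, for a log2 fold change of -0.69 (adjusted p = 0.243 from edgeR), close to the -0.72 of its FPKM. Its fullest loci, an RMER15 and a B3 element, had 33 and 19 reads in all.

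*Tfcp2l1* had the most reads, 362, 447 and 96 in WT and 151, 95, 124 and 86 in mutant libraries, but only 12.1% lay outside of exons. An ORR1E element at chr1:118678046-118678399 and a B1_Mus1 element, both in exons, had 432 and 162 in all, so these reads also count in FPKM. The log2 fold change of -1.20 (adjusted p = 0.253 from edgeR) was -0.64 without WT replicate 2 and -0.33 with loci outside of exons alone. The latter held 43, 29 and 16 reads in WT and 28, 18, 19 and 12 in mutants.

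*Dppa4* had 213, 97 and 43 reads in WT and 67, 56, 60 and 34 in mutants (log2 fold change -0.85, adjusted p = 0.383 from edgeR), mostly on a B2_Mm2 element in an exon and a B1F element. *Dppa3* had 56, 12 and 18 reads against 18, 12, 12 and 7 (log2 fold change -0.94, adjusted p = 0.408 from edgeR), on B1F2 and B1_Mus1 elements and others. *Nanog* had 75, 20 and 38 against 20, 40, 38 and 30 reads (log2 fold change -0.19, adjusted p = 0.871 from edgeR), most on a B2_Mm1a and an ID4_ element in exons. Without WT replicate 1 the log2 fold change of repeat reads was -0.27 for *Dppa4* and -0.17 for *Dppa3*. As with FPKM, *Nanog* was lowest in size of the 7 differences and WT replicate 2 lay near the bottom of its range. The *Pou5f1* reads were on an MT2_Mm element (17 reads, at chr17:35508551-35508748, overlapping the second RefSeq promoter) and a B2_Mm2 element (6 reads).

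**Figure D5:**
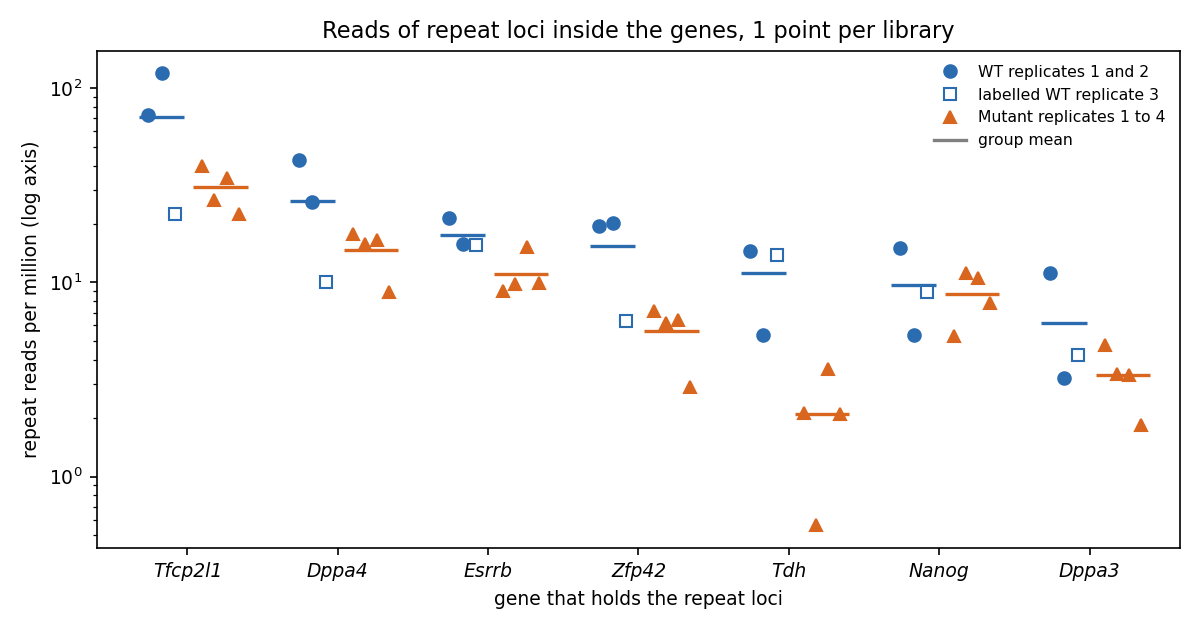
Reads of repeat loci inside 7 of the genes in CPM after TMM scaling (log axis) in the 3 WT and 4 mutant libraries, with 1 point per library and bars at the group means. The groups are apart for *Tdh* (2.09 against 11.2 CPM) and just apart for *Esrrb*, and overlap for the other genes.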

How the data were processed

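Whole testes at E14.5 were profiled from 3 WT and 4 *Glis3* mutant embryos, and groups were taken from the sample titles. Per the labels and the methods of the study, the authors removed reads of low base quality, mapped the rest to mm10 by TopHat2 2.0.12 as unstranded reads with up to 10 placements each, and made FPKM per RefSeq gene with Cuffquant and Cuffnorm. The authors also made raw counts of uniquely mapped reads per RepeatMasker LINE, SINE or LTR locus with HTSeq, deposited without normalization. All columns of sample values were used.

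FPKM was tested as log2(FPKM + 0.5) with limma 3.58.1 (eBayes with a trend, two-sided, Benjamini-Hochberg over all 13988 genes whose mean reached 0.5 FPKM, threshold 0.05) in R 4.3.3. This scale understates changes of low genes. Counts of loci lying wholly inside GENCODE M21 genes (bedtools 2.31.1) were summed per gene and tested with edgeR 4.0.16 (quasi-likelihood, TMM, a mean of at least 10 reads). DESeq2 1.42.0 was an alternative. Single values were compared by two-sided exact permutation tests over the 35 ways of assigning 7 libraries to 3 and 4. The limma, edgeR and permutation tests were checked on simulated data.

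The 10 genes, the marker and pathway lists and the tests were chosen with earlier results of these data known, so no list is independent evidence. By rule, the text names *Glis3*, the 10 genes, of each of 4 lists of related genes those past the threshold or else the 3 highest and 3 lowest log2 fold changes, the 3 genes most like each of the 10 (those of *Esrrb* are not reported here), and the 2 repeat loci with most reads in each. *Nr5a2*, *Lin28b*, *Fbxo15* and the single marker genes were named after their values were seen. Replicates are separate embryos. Other settings were pseudocounts of 0.1 and 1, other filters and scalings, the replicate number as a block, and each library left out in turn. Cuffdiff was not run.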

Additional observations from a re-analysis of the deposited data

Results flagged for a closer look

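One value stood apart from the others of its group. Among the 4 mutant libraries, the repeat reads inside *Esrrb* were 15.2 CPM in mutant replicate 3 and 8.998, 9.82 and 9.95 CPM in mutant replicates 1, 2 and 4. The gap from the highest to the next library was 0.847 of the whole range of the group, above Dixon's 95% critical value for 4 samples. Chance alone flags about 5% of groups, and 17 groups of mutant values were looked at. The FPKM of *Esrrb* was also highest in mutant replicate 3 (1.15 FPKM), without being that far from the other mutants.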

How the results depend on the processing

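For FPKM, 1 gene was called in all, 4 with no filter, 3 with quantile normalization, 0 with a replicate block and 1 to 720 when single libraries were left out, 720 being without the library labelled WT replicate 3. None of the 10 genes was called in any setting but leave-one-out (0 to 5, with *Tdh* alone without WT replicate 2). Of the single log2 fold changes of FPKM, 152 recomputed values kept their direction and side of the threshold, 6 passed the threshold, all without 1 WT library, and 1 turned. This was *Nanog*, with a range from -0.52 to 0.16, the latter without WT replicate 1. *Esrrb* did not pass a filter of 2 FPKM. For repeat reads, 2 genes were called in all, 8 with library size only, 54 by DESeq2, 324 with no filter, 1 with a mean of at least 50 reads, 22 with loci outside of exons only, 0 with a replicate block and 0 to 199 when leaving out libraries. Of the 7 genes tested this way, 0 were called, and 2 by DESeq2, 4 with no filter, 1 with loci outside of exons only and 0 to 4 when leaving out libraries (*Tdh* without WT replicate 2). *Nanog* reached from -0.47 to 0.27, again above 0 without WT replicate 1. The cause of these shifts was not tested.

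Relative to germ cell markers, 1 gene (*Nanog*) had an unadjusted permutation p under 0.05 with *Ddx4* and *Dazl* alone as the reference. This reference also turned *Dppa4* to 0.069 and *Tfcp2l1* to 0.096. *Esrrb* turned to -0.0091 at a pseudocount of 0.1, and *Tfcp2l1* to 0.050 at a pseudocount of 1. Leaving out single libraries gave -0.058 to 0.32 for *Pou5f1*, -0.31 to 0.30 for *Sox2*, -0.48 to 0.28 for *Dppa4*, 0.13 to 0.48 for *Dppa3*, 0.10 to 0.94 for *Dppa5a*, 0.17 to 0.90 for *Nanog*, -0.44 to -0.085 for *Zfp42*, -1.91 to -0.89 for *Tdh*, -0.26 to 0.44 for *Esrrb* and -0.27 to 0.22 for *Tfcp2l1*, where the exact test cannot go below 0.0667 without a WT library.

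Deviations from the group means had r = 0.198, -0.177 and 0.229 between same-numbered WT and mutant libraries. For replicates 1 and 3 this was the highest r of the WT library with any mutant library. For WT replicate 2 the highest was 0.127, with another mutant. So few coefficients cannot decide whether the numbers pair the samples. The replicate block, which drops mutant replicate 4, called none of the 10 genes. FPKM hides the number of fragments, and counts under about 10 reads per library limit the repeat loci.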
